A study of Drosophila melanogaster with 6 samples.

Results

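Glutathione S-transferases (GSTs) were examined in Drosophila S2 cells, a line derived from embryos that carries features of blood cells. Members were all genes whose symbol is Gst followed by a class letter (D, E, O, S, T or Z) and a number, which gave 31 genes of the 8604 gene symbols named in the deposited table. RefSeq release 6 lists 35 such symbols, and GstE1, GstE4, GstE10 and GstZ2 were not analysed here. The study profiled messenger RNA after knockdown of CBP, after knockdown of NAP-1 and after a control knockdown, with 2 samples in each group. CBP is the histone acetyltransferase encoded by nej, and NAP-1 is a histone chaperone encoded by Nap1. All 6 samples were S2 cells grown in Schneider's medium with 10% serum, and the labels give neither the way in which a knockdown was made, nor its length, nor what the control knockdown was directed at. Whether a group's 2 samples were separate cultures is not given either. The p-values therefore reflect the spread among these samples alone, and that spread may be technical.

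GSTs join the tripeptide glutathione to reactive electrophiles, which makes these compounds more soluble and easier to export. In insects the delta (D) and epsilon (E) classes have expanded into gene clusters and are best known for the breakdown of insecticides, plant toxins and products of lipid oxidation. The omega (O), theta (T), zeta (Z) and sigma (S) classes are shared more widely among animals. Many GST genes of flies respond to oxidative stress through the transcription factor CncC, a product of cnc, which Keap1 holds in check.

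There were between 4162019 and 5362319 alignments per sample. Nap1 transcript stood at 20.6 and 26.5 RPKM (reads per kilobase, adjusted for library depth) in NAP-1 knockdown, against 220 and 243 RPKM in control. The listed mRNAs of nej summed to 0.899 and 0.364 RPKM in CBP knockdown, against 3.25 and 2.47 RPKM in control, so this check of the CBP knockdown rests on low values. Nap1 lay above both controls in CBP knockdown, at 325 and 365 RPKM (limma adjusted p = 0.148). In NAP-1 knockdown nej lay below both controls, at 1.26 and 2.41 RPKM (limma adjusted p = 0.978). Of 19 blood cell markers, 13 were in the table. Among them Hml, srp, He, NimC1 and lz, which mark haemocytes or their lineages, were under 1 RPKM in every sample, while the collagen genes vkg and Cg25C stood between 25.2 and 122 RPKM. Markers of other fly cell types summed to 4.73 and 6.32 RPKM in CBP knockdown, 9.47 and 9.83 RPKM in NAP-1 knockdown, and 9.704 and 8.71 RPKM in control, over 14 listed genes.

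Of the 31 GST genes, 20 averaged 1 RPKM or more across all 6 samples and are called expressed here. They were 6 of 11 class D genes, 7 of 11 class E genes, all 3 class O genes, 3 of 4 class T genes and GstZ1. The threshold fell between GstO2, with a mean of 1.27 RPKM, and GstE12, with a mean of 0.891 RPKM. A mean of at least 1 RPKM within every group was reached by 18 genes. GstE11 passed with a mean below 1 RPKM in CBP knockdown. GstD2 passed through its level in CBP knockdown, so that a difference between groups was built into its passing. The plot of levels in each sample shows the 20 genes by class.

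**Figure D1:**
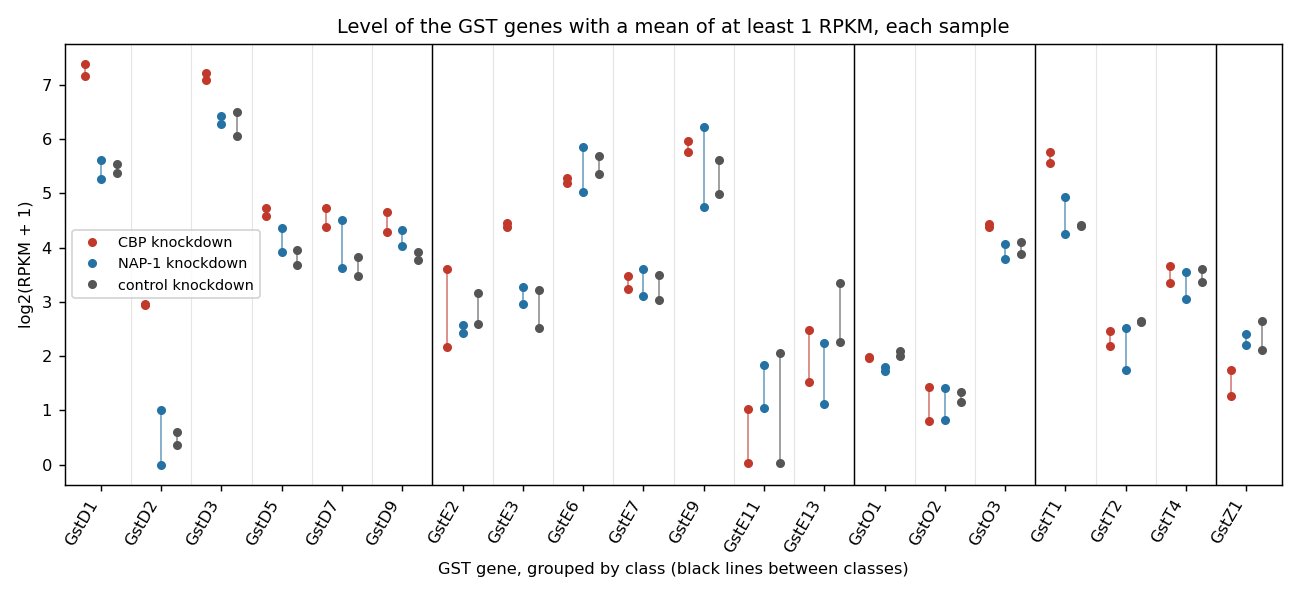
Level of the 20 expressed GST genes as log2(RPKM + 1) in each sample, with 1 point per sample and a line joining the 2 samples of a group (CBP knockdown, NAP-1 knockdown and control, from left to right within each gene). GstD1, GstD2, GstD3, GstD5, GstE3, GstO3 and GstT1 have both CBP knockdown points above all points of the other groups. The share of all genes with that pattern is not given here. GstE9 shows a wide gap between the 2 NAP-1 knockdown samples.

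The family was led by a few transcripts. By the mean of the control samples, among 4021 genes tested, GstD3 ranked 114, GstE6 ranked 209, GstD1 ranked 219, GstE9 ranked 239 and GstT1 ranked 566. GST transcripts summed to 569 and 633 RPKM in CBP knockdown, 418 and 296 RPKM in NAP-1 knockdown, and 341 and 332 RPKM in control. Both CBP knockdown samples were above all others. The sum was 1.78 times as large in CBP knockdown as in control, in values not scaled to equal totals. GstD1, GstD3 and GstT1 carried much of that difference. Without these 3 genes the family summed to 245 and 265 RPKM in CBP knockdown, 263 and 156 RPKM in NAP-1 knockdown, and 214 and 177 RPKM in control, a ratio of 1.30 between CBP knockdown and control, and the groups of CBP and NAP-1 knockdown overlapped.

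The sums of classes D, T and O were higher in each CBP knockdown sample than in any other sample. Class D summed to 348 and 398 RPKM in CBP knockdown, 188 and 164 RPKM in NAP-1 knockdown, and 148 and 174 RPKM in control. Class T summed to 62.1 and 66.4 RPKM in CBP knockdown, 44.8 and 27.7 RPKM in NAP-1 knockdown, and 36.5 and 34.9 RPKM in control. The sums were 2.31 times as large in CBP knockdown as in control for class D and 1.80 times for class T. Class E summed to 133 and 143 RPKM in CBP knockdown, 162 and 82.5 RPKM in NAP-1 knockdown, and 132 and 99.3 RPKM in control, and its groups lay close together or overlapped. Class O, at 24.4 and 24.2 RPKM in CBP knockdown, 18.8 and 17.0 RPKM in NAP-1 knockdown, and 20.7 and 18.2 RPKM in control, had a ratio of 1.25 between CBP knockdown and control, and class E a ratio of 1.19. Class D made up 61.1% and 62.9% of GST transcripts in CBP knockdown, 45% and 55.5% in NAP-1 knockdown, and 43.4% and 52.4% in control. These class sums are descriptions and were not tested. They and the family sums above use values as deposited, without scaling to equal totals. That scaling lowered the median log2 fold change in CBP knockdown against control from 0.89 to 0.62 for class D. It moved class E from 0.00 to -0.24, class O from -0.07 to -0.28 and all genes tested from -0.15 to -0.37. Scaling by the median of ratios instead raised these medians, to 1.09 for class D, 0.17 for class E, 0.09 for class O and 0.01 for all genes tested. The ratios of these sums thus depend on the scaling, and those of classes E and O may be no larger than a shift shared with other genes.

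**Figure D2:**
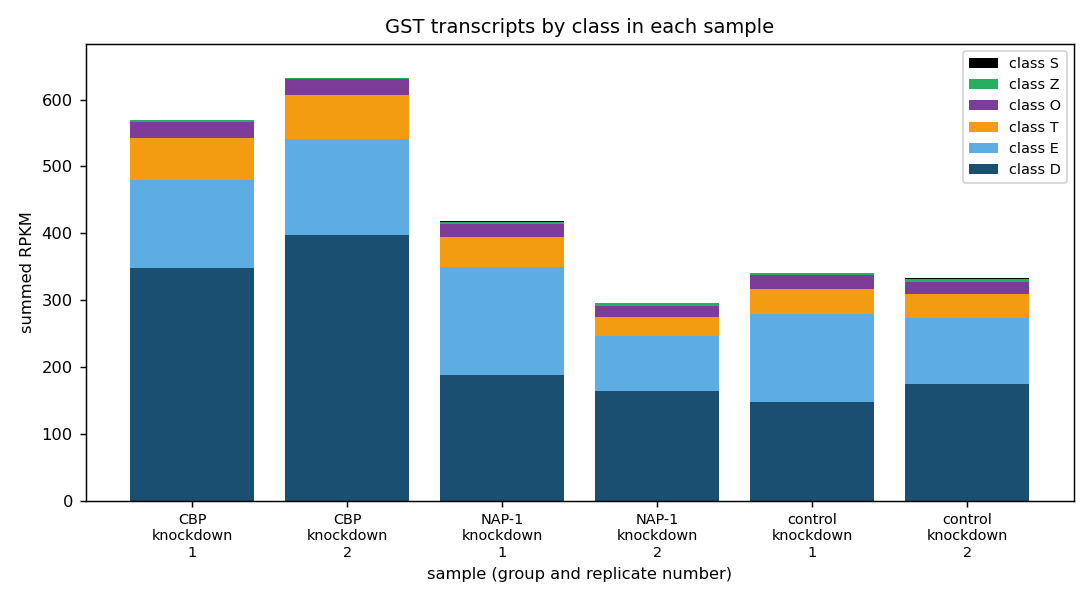
Summed RPKM of the GST genes in each sample, stacked by class (D at the bottom, then E, T, O, Z and S), for CBP knockdown, NAP-1 knockdown and control. The 2 CBP knockdown samples reach 569 and 633 RPKM, above the other 4 samples, mainly through class D.

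CBP knockdown was set against control gene by gene with limma on log2(RPKM + 1), with p-values adjusted over all 4021 genes tested. GstD1, GstD2, GstE3 and GstT1 rose, which is 4 of the 20 expressed GST genes, and 0 fell. Over all genes tested, 8.53% rose and 17.3% fell. Transcript length moves with this comparison. The expressed GST transcripts measured 734 to 1220 nucleotides, against a median of 1698 nucleotides over the 3969 tested genes with a length. Among the 793 tested genes within the GST length range, 11% rose and 6.31% fell. The median log2 fold change was 0.26 for the 20 GST genes, 0.19 for the genes of the same length range and -0.15 for all genes tested. Of the 18 GST genes that reached a mean of 1 RPKM within every group, 3 rose. At an unadjusted p under 0.05, 7 GST genes were higher and 1 was lower, against 16.5% and 27.2% of all genes.

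GstD1 showed the clearest change. It encodes a delta enzyme known for dehydrochlorination of DDT, and its promoter is widely used in flies as a reporter of Keap1 and CncC activity. GstD1 had 143 and 166 RPKM in CBP knockdown, 48.2 and 37.3 RPKM in NAP-1 knockdown, and 40.7 and 45.8 RPKM in control. The CBP knockdown samples stood far above the other 4, which overlapped with each other. GstD1 rose by 1.81 ± 0.27 on the log2 scale in CBP knockdown against control (SE, limma adjusted p = 0.0163). At its transcript length these levels correspond to about 628 and 743 reads in CBP knockdown and about 164 and 198 reads in control. In RefSeq release 6 GstD1 has 2 mRNAs, and the table held 1 of them under both the gene's symbol and the mRNA's name with the same values, so the other mRNA may be missing from its level.

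GstD2 encodes a delta enzyme that has been linked in flies to the handling of plant isothiocyanates. GstD2 had 6.80 and 6.67 RPKM in CBP knockdown, 1.01 and 0 RPKM in NAP-1 knockdown, and 0.276 and 0.511 RPKM in control. Both CBP knockdown samples were above the other 4. It rose by 2.48 ± 0.41 on the log2 scale (SE, limma adjusted p = 0.0163), in both CBP knockdown samples. That value rests on about 52 reads over both CBP knockdown samples and about 3 reads over both control samples. The ratio of those reads per alignment was 16.3, with an exact (Clopper-Pearson) 95% interval of 5.29 to 81.8 that covers counting error only. The size of this log2 fold change depended on the pseudocount. It was 3.83 at a pseudocount of 0.1, where the call was lost (adjusted p = 0.06), and 1.12 at a pseudocount of 5, where the call held (adjusted p = 0.0149).

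GstE3 belongs to the epsilon cluster. GstE3 had 19.8 and 20.9 RPKM in CBP knockdown, 8.62 and 6.78 RPKM in NAP-1 knockdown, and 8.32 and 4.72 RPKM in control. Both CBP knockdown samples were above every other sample, and NAP-1 knockdown overlapped with control. It rose by 1.55 ± 0.32 on the log2 scale (SE, limma adjusted p = 0.0212).

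GstT1 is a theta gene, and theta enzymes of animals act on small halogenated compounds and on peroxides. GstT1 had 46.01 and 53.2 RPKM in CBP knockdown, 29.4 and 18.1 RPKM in NAP-1 knockdown, and 20.1 and 20.4 RPKM in control. The CBP knockdown samples did not overlap with any other, although 1 NAP-1 knockdown sample lay above the controls. It rose by 1.25 ± 0.30 on the log2 scale (SE, limma adjusted p = 0.0307), and with the replicate number as a block the call was lost (adjusted p = 0.0514).

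The number of GST genes called depended on single libraries, and the share of all genes called in such fits is not given here. Omitting a library could not reverse the direction of these 4 genes, since both CBP knockdown samples lay above both controls. Omitting a NAP-1 knockdown library left these fold changes as they were. With control replicate 1 omitted, 0 GST genes were called higher, and the same count resulted with CBP knockdown replicate 2 omitted. Without control replicate 2 or CBP knockdown replicate 1, 2 were called, GstD1 and GstD2. Without either NAP-1 knockdown library, or with the 4 samples of these groups alone, 7 were called. In these fits the log2 fold change stayed between 1.71 and 1.92 for GstD1, between 2.36 and 2.60 for GstD2, between 1.196 and 1.90 for GstE3, and between 1.14 and 1.35 for GstT1. With the trend on transcript length removed, all 4 calls held, at log2 fold changes of 1.69 for GstD1, 2.33 for GstD2, 1.40 for GstE3 and 1.16 for GstT1. In that fit 11.1% of all genes rose and 10% fell, and of the genes in the GST length range 8.58% rose and 7.94% fell.

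The other class D genes had higher values in CBP knockdown without passing the test. GstD3, whose protein lacks the N-terminal stretch that other delta enzymes have, had 135 and 148 RPKM in CBP knockdown, 76.8 and 84.6 RPKM in NAP-1 knockdown, and 65.7 and 89.3 RPKM in control. Its log2 fold change in CBP knockdown was 0.87 ± 0.27 (SE, limma adjusted p = 0.0553). GstD5 had 23.1 and 25.5 RPKM in CBP knockdown, 19.5 and 14.1 RPKM in NAP-1 knockdown, and 14.5 and 11.8 RPKM in control, a log2 fold change of 0.84 ± 0.27 between CBP knockdown and control (SE, limma adjusted p = 0.0609). Both genes had every CBP knockdown sample above every control sample. GstD7 had 19.8 and 25.7 RPKM in CBP knockdown, 21.6 and 11.4 RPKM in NAP-1 knockdown, and 13.1 and 10.2 RPKM in control, with an adjusted p of 0.0978 in limma. GstD9 had 18.6 and 24.2 RPKM in CBP knockdown, 19.1 and 15.3 RPKM in NAP-1 knockdown, and 12.7 and 14.2 RPKM in control, with an adjusted p of 0.121. For GstD7 and GstD9 the CBP and NAP-1 knockdown samples overlapped. GstD3, GstD5 and GstD7 were the genes called in addition to the 4 above when either NAP-1 library was left out. With the samples scaled by their median of ratios, GstD3 and GstD5 were called as well (adjusted p = 0.0426 and 0.0423).

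Apart from GstD2, the 5 expressed class D genes had positive log2 fold changes in CBP knockdown, from 0.62 to 1.81 with a median of 0.87. Log2 fold changes were positive for 1793 of 4021 genes tested and for 470 of the 793 genes in the GST length range. The class D values stayed positive under each of 3 other scalings of the samples. Those scalings moved the median of all genes to 0.01 (median of ratios), 0.12 (quantile normalization) and -0.37 (equal totals), against -0.15 for the values as deposited. The medians of class E (0.00), class O (-0.07) and class T (0.02) changed sign among these scalings. The groups did not overlap for 10 GST genes that were higher and 4 that were lower in CBP knockdown, against 33.7% and 42.3% of all genes.

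**Figure D3:**
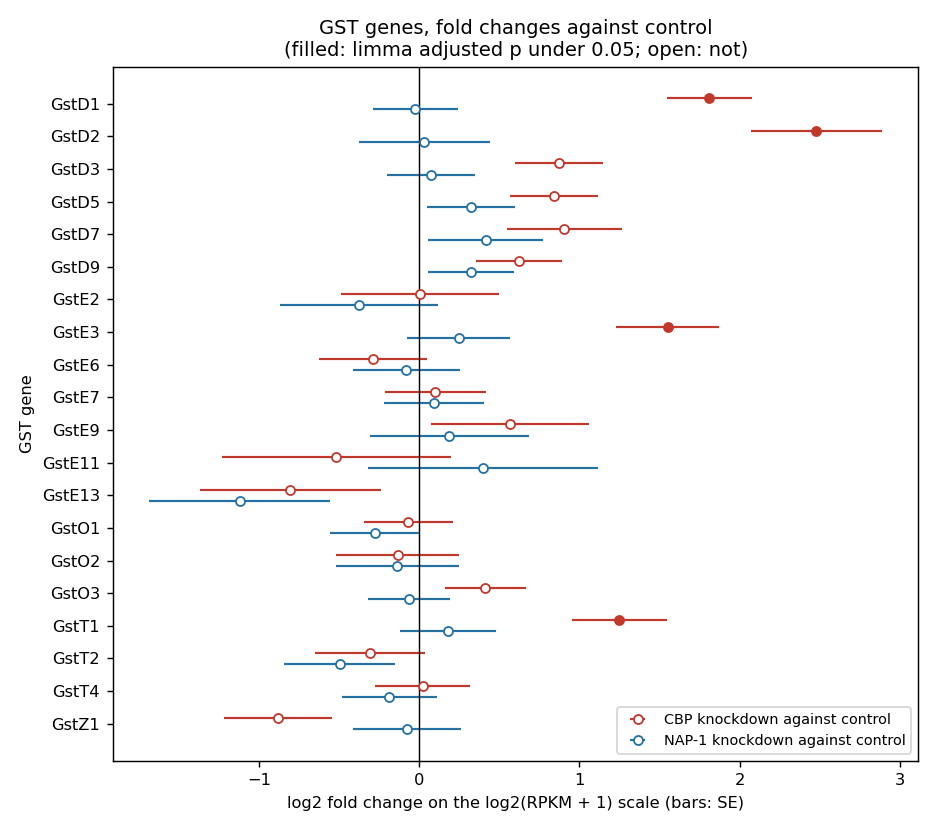
Log2 fold change of each expressed GST gene on the log2(RPKM + 1) scale, with its SE as a bar, for CBP knockdown against control (red, upper point of each gene) and NAP-1 knockdown against control (blue, lower point), filled where the limma adjusted p was under 0.05. The filled points are GstD1, GstD2, GstE3 and GstT1 in CBP knockdown, and the NAP-1 knockdown points lie between -1.12 and 0.41.

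Within class E, GstE3 stood apart from its expressed neighbours, and this difference among genes was not itself tested. GstE6 had 35.4 and 37.9 RPKM in CBP knockdown, 57.2 and 31.6 RPKM in NAP-1 knockdown, and 50.7 and 39.99 RPKM in control. GstE9 had 53.5 and 61.7 RPKM in CBP knockdown, 73.9 and 26 RPKM in NAP-1 knockdown, and 48.1 and 30.7 RPKM in control. GstE7 had 8.46 and 10.2 RPKM in CBP knockdown, 11.2 and 7.61 RPKM in NAP-1 knockdown, and 7.15 and 10.3 RPKM in control. GstE6 and GstE7, broad conjugating enzymes in vitro, were not called, with log2 fold changes in CBP knockdown of -0.29 ± 0.34 and 0.10 ± 0.31 (SE). GstE9 was not called either, at 0.57 ± 0.49 (SE). An exon of it overlaps imd on the opposite strand in the BDGP6 annotation. Reads there can be told apart only if strand was used in counting, which the sources used here do not state. Exons of GstE12, GstE13 and GstT2 also overlap genes on the opposite strand (CG3894, CG18659 and CG12926), so the same limit applies to their levels.

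The remaining expressed epsilon genes were lower in level and more scattered. GstE2 had 11.2 and 3.47 RPKM in CBP knockdown, 4.39 and 4.97 RPKM in NAP-1 knockdown, and 7.97 and 5.06 RPKM in control. GstE13 had 1.87 and 4.58 RPKM in CBP knockdown, 3.75 and 1.18 RPKM in NAP-1 knockdown, and 9.22 and 3.79 RPKM in control. GstE11 had 0.0197 and 1.04 RPKM in CBP knockdown, 1.07 and 2.58 RPKM in NAP-1 knockdown, and 0.0202 and 3.18 RPKM in control. Replicates of these 3 genes differed as much as the groups did, and none was called. Without GstE3, class E summed to 113 and 122 RPKM in CBP knockdown, 153 and 75.7 RPKM in NAP-1 knockdown, and 123 and 94.6 RPKM in control, with overlapping groups.

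The delta and epsilon genes lie in clusters, and the plot by gene order shows that neighbours did not share one level. In RefSeq release 6 the class D genes run along chromosome arm 3R in the order GstD10, GstD9, GstD1, GstD2, GstD3, GstD4, GstD5, GstD6, GstD7, GstD8 and GstD11, with the first 3 on the minus strand and the others on the plus strand. GstD3 is flanked by GstD2, which was under 1 RPKM in both control samples, and by GstD4, which had 0.510 and 0.250 RPKM in CBP knockdown, 0.769 and 0.321 RPKM in NAP-1 knockdown, and 0.280 and 0.777 RPKM in control. GstD6 lies between the expressed genes GstD5 and GstD7 and had 0.474 and 0.930 RPKM in CBP knockdown, 0.715 and 0.895 RPKM in NAP-1 knockdown, and 0.520 and 0.963 RPKM in control. GstD8, GstD10 and GstD11 reached at most 0.261 RPKM in any sample. Delta genes resemble each other in sequence, and how the authors' counting treated reads shared between such genes is not stated in the sources used here.

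**Figure D4:**
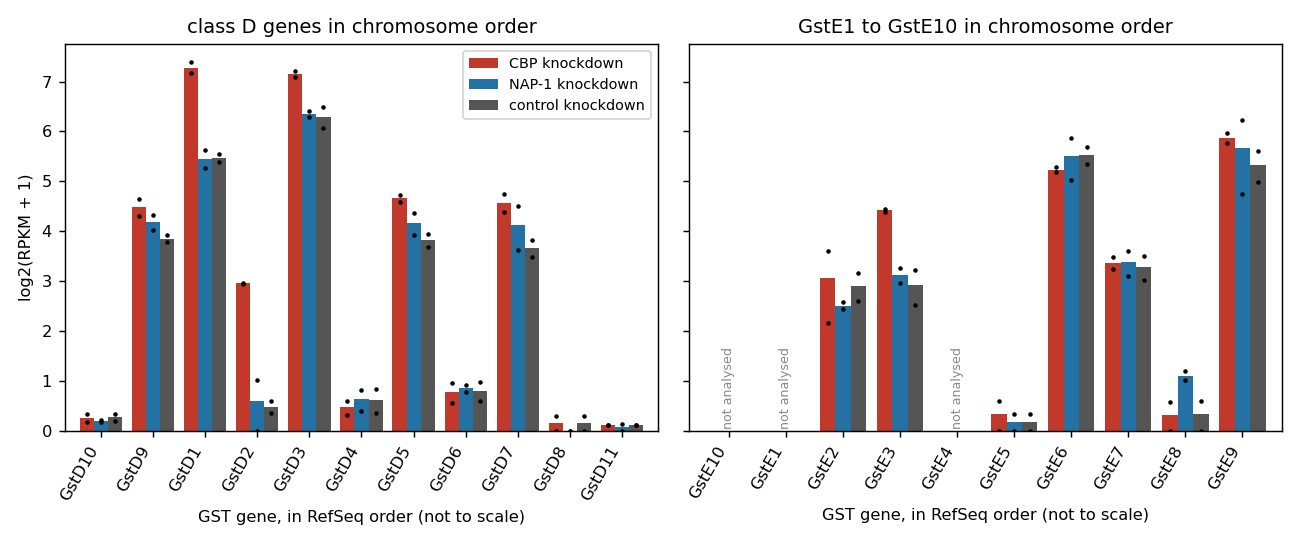
Mean RPKM of each group, as log2(RPKM + 1), for the class D genes and for GstE1 to GstE10 in RefSeq gene order, with a dot for each sample (CBP knockdown, NAP-1 knockdown and control, from left to right within each gene, gene spacing not to scale). Genes under 1 RPKM lie between expressed genes in both clusters, and GstD1, GstD2 and GstE3 have the tallest CBP knockdown bars relative to control.

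Among the omega genes, none was called in CBP knockdown. Omega enzymes reduce dehydroascorbate and protein mixed disulphides rather than conjugate electrophiles. GstO3 had 19.8 and 20.6 RPKM in CBP knockdown, 15.7 and 12.9 RPKM in NAP-1 knockdown, and 16.2 and 13.7 RPKM in control, a log2 fold change of 0.41 ± 0.25 between CBP knockdown and control (SE, limma adjusted p = 0.249). GstO1 had 2.96 and 2.90 RPKM in CBP knockdown, 2.31 and 2.48 RPKM in NAP-1 knockdown, and 3.24 and 3.00 RPKM in control. GstO2, at 1.69 and 0.739 RPKM in CBP knockdown, 0.757 and 1.66 RPKM in NAP-1 knockdown, and 1.24 and 1.53 RPKM in control, overlapped in all groups. An exon of GstO2 overlaps se, the gene of a related enzyme of eye pigment synthesis, on the opposite strand.

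The other theta genes did not follow GstT1. GstT2, its next gene on the chromosome, had 4.49 and 3.56 RPKM in CBP knockdown, 4.74 and 2.36 RPKM in NAP-1 knockdown, and 5.17 and 5.23 RPKM in control. GstT4 had 11.6 and 9.20 RPKM in CBP knockdown, 10.7 and 7.28 RPKM in NAP-1 knockdown, and 11.2 and 9.27 RPKM in control. Neither was called, with log2 fold changes in CBP knockdown of -0.31 ± 0.35 for GstT2 and 0.02 ± 0.30 for GstT4 (SE).

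GstZ1 had lower values in CBP knockdown without passing the test. Zeta enzymes are maleylacetoacetate isomerases, which act in the breakdown of tyrosine. GstZ1 had 2.33 and 1.41 RPKM in CBP knockdown, 4.33 and 3.62 RPKM in NAP-1 knockdown, and 3.34 and 5.28 RPKM in control. Both CBP knockdown samples were below all others. The log2 fold change was -0.88 ± 0.34 (SE, limma adjusted p = 0.0907).

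GST genes under the minimum were not tested. GstE12 had 1.52 and 2.24 RPKM in CBP knockdown, 0.492 and 0.316 RPKM in NAP-1 knockdown, and 2.83e-07 and 0.774 RPKM in control, and 2 distinct mRNAs of it were listed of 4 in RefSeq. GstE8 had 2.93e-07 and 0.498 RPKM in CBP knockdown, 1.02 and 1.28 RPKM in NAP-1 knockdown, and 2.2e-07 and 0.516 RPKM in control. GstS1, the sigma gene, known as an abundant protein of fly flight muscle that acts on products of lipid oxidation, was listed at 0 in both CBP knockdown samples, at 0.205 and 0.513 RPKM in NAP-1 knockdown, and at 0.670 and 0.620 RPKM in control. GstE14, which acts in ecdysteroid synthesis in flies, reached at most 0.282 RPKM, GstE5 at most 0.504 RPKM and GstT3 at most 0.475 RPKM. In these samples such values are a few reads or fewer per library. Of the 31 genes, 11 have more than 1 RefSeq mRNA, 5 of them expressed, and for these the table may hold only a part of the gene's transcripts.

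NAP-1 knockdown was set against the same control samples, so both comparisons share them. No GST gene was called in NAP-1 knockdown, with 0 of 20 higher and 0 of 20 lower (limma adjusted p under 0.05), against 0% and 0.0249% of all genes, where Nap1 was the only gene to fall. At an unadjusted p under 0.05, 0 GST genes passed in either direction, against 0.945% of all genes higher and 2.51% lower. Log2 fold changes ran from -1.12 ± 0.57 for GstE13 to 0.41 ± 0.36 for GstD7 (SE), with a median of 0.00, against -0.13 for all genes tested. For the 4 genes that rose in CBP knockdown, the NAP-1 values against control were -0.02 ± 0.27 for GstD1, 0.03 ± 0.41 for GstD2, 0.25 ± 0.32 for GstE3 and 0.18 ± 0.30 for GstT1 (SE). GstD9 was the 1 gene whose NAP-1 knockdown samples both lay above the controls, and GstE2, GstE13, GstO1 and GstT2 were the 4 whose samples both lay below them, against 8.06% and 26.1% of all genes.

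Samples of 1 group differed in their GST levels. In NAP-1 knockdown replicate 1 was above replicate 2 in 15 of 20 GST genes, with a median ratio of 1.29, against 53.7% of all genes and a median ratio of 1.06. In CBP knockdown replicate 1 was above replicate 2 in 7 of 20 GST genes, with a median ratio of 0.924, against 67.8% of all genes and a median ratio of 1.25. In control it was above in 10 of 20 GST genes, with a median ratio of 1.03, against 51.4% of all genes and a median ratio of 1.01. The samples of both knockdowns thus differed in GST levels by other amounts than over all genes, and this was not tested. GstE9, at 73.9 and 26 RPKM, had the widest gap in RPKM between the NAP-1 knockdown samples.

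The direct comparison of NAP-1 knockdown with CBP knockdown asked which GST genes separate the knockdowns, and it shares the CBP knockdown samples with the comparison against control. GstD1 and GstD2 were lower in NAP-1 knockdown, 2 of 20, against 2.46% of all genes, and 0 were higher, against 3.06%. Of the 18 GST genes with a mean of at least 1 RPKM within every group, 1 was lower, GstD1, since GstD2 passed the minimum through its level in CBP knockdown. The log2 fold change of GstD1 was -1.84 ± 0.27 (SE, limma adjusted p = 0.0374) and that of GstD2 was -2.45 ± 0.41 (SE, limma adjusted p = 0.0442). GstE3, at -1.30 ± 0.32 (SE, adjusted p = 0.0612), and GstT1, at -1.07 ± 0.30 (SE, adjusted p = 0.0753), did not pass this test, so for these genes a difference between the knockdowns was not shown. GstZ1 had a log2 fold change of 0.81 ± 0.34 (SE, adjusted p = 0.156). At an unadjusted p under 0.05, 1 GST gene was higher and 5 were lower in NAP-1 knockdown, against 17.7% and 13.9% of all genes. The groups did not overlap for 2 that were higher and 8 that were lower, against 32.8% and 29.8% of all genes. Both calls were lost on omission of any 1 library other than NAP-1 knockdown replicate 1. Without that library 3 genes were called lower, GstT1 among them (adjusted p = 0.0402).

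Genes that make and use glutathione were examined beside the GSTs. Of 24 such genes, 9 were listed and 7 were tested, and in CBP knockdown 3 rose and 1 fell, with a median log2 fold change of 0.83, against 8.53% and 17.3% of all genes. GS, a glutathione synthetase gene, had 7.04 and 7.19 RPKM in CBP knockdown, 2.00 and 1.69 RPKM in NAP-1 knockdown, and 1.53 and 1.79 RPKM in control. It rose by 1.61 ± 0.28 on the log2 scale in CBP knockdown (SE, limma adjusted p = 0.0172) and was lower in NAP-1 than in CBP knockdown (log2 fold change -1.51, adjusted p = 0.0443). CG32495, a second glutathione synthetase gene with nearly the same values, may share its reads with GS. With both counted as 1 gene, 2 of 6 rose and 1 fell, with a median log2 fold change of 0.53. CG1707, the glyoxalase 1 gene (Glo1), rose by 1.56 ± 0.41 (SE, limma adjusted p = 0.0366), at 7.55 and 12.5 RPKM in CBP knockdown, 5.32 and 2.83 RPKM in NAP-1 knockdown, and 1.88 and 3.60 RPKM in control. CG4829 fell by 1.29 ± 0.35 (SE, limma adjusted p = 0.0375). It had 0.151 and 0.066 RPKM in CBP knockdown, 0.975 and 1.72 RPKM in NAP-1 knockdown, and 2.03 and 1.43 RPKM in control. CG4829 thus passed the minimum through its levels outside CBP knockdown, so that a difference between groups was built into its passing.

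Some antioxidant and other detoxification genes were called in CBP knockdown, in both directions. Of all genes tested, 8.53% rose and 17.3% fell in that comparison. Of 8 tested genes of the Keap1-CncC system and antioxidant enzymes, 2 rose, Sod (1.32, adjusted p = 0.0354) and Eip71CD (1.14, adjusted p = 0.0234), and 2 fell, Jafrac1 (-2.04, adjusted p = 0.0249) and ref(2)P (-1.77, adjusted p = 0.0396), all in limma log2 fold changes. Sod encodes a superoxide dismutase, Eip71CD a methionine sulphoxide reductase, Jafrac1 a peroxiredoxin and ref(2)P the fly p62 protein. Keap1 and cnc themselves had means under 1 RPKM over the mRNAs listed and were not tested. Of 10 tested cytochrome P450, transporter and epoxide hydrolase genes, Jheh1 rose (1.09, limma adjusted p = 0.0357) and Cyp6a20 fell (-2.31, limma adjusted p = 0.0278). The 3 tested GST relatives outside the naming rule were Clic, Ef1gamma and gfzf. Of these, 0 were called in any of the 3 comparisons (adjusted p under 0.05). Before adjustment gfzf passed 0.05 in CBP knockdown against control (log2 fold change -1.16), where 27.2% of all genes passed as lower. It also passed in NAP-1 against CBP knockdown (1.35), where 17.7% passed as higher. It had 0.0271 and 1.34e-08 RPKM in CBP knockdown, 0.634 and 3.09 RPKM in NAP-1 knockdown, and 1.64 and 0.944 RPKM in control. Thus gfzf reached the minimum through its levels outside CBP knockdown, and both differences were built into its passing. In NAP-1 knockdown against control 0 genes of these lists were called by limma. At an unadjusted p under 0.05 Gclm passed there, with a log2 fold change of 1.24, against 0.945% of all genes higher. Gclm had 1.26 and 0.00203 RPKM in CBP knockdown, 2.53 and 1.59 RPKM in NAP-1 knockdown, and 0.00139 and 0.640 RPKM in control. It passed the minimum through its level in NAP-1 knockdown, so that a difference was built into its passing.

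Some blood cell markers differed in the same comparison. Of 7 tested markers, 0 rose and 3 fell in CBP knockdown, namely vkg, Glt and ush, against 8.53% and 17.3% of all genes. The other 4 did not pass. Of these, crq, Cg25C and drpr had log2 fold changes of -1.93, -1.02 and -0.90 (limma adjusted p = 0.0806, 0.054 and 0.0614). Fer1HCH lay at 0.09. The marker ush had 0.288 and 0.158 RPKM in CBP knockdown, 1.70 and 3.34 RPKM in NAP-1 knockdown, and 3.69 and 3.23 RPKM in control. It passed the minimum through its levels outside CBP knockdown, so that a difference between groups was built into its passing. The 13 listed markers summed to 224 and 193 RPKM in CBP knockdown, 300.1 and 388 RPKM in NAP-1 knockdown, and 431 and 418 RPKM in control. The part that these markers or transcript length have in the GST differences was not tested beyond the values given. In bulk RNA, fewer cells with a transcript and less of it per cell cannot be told apart.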

How the data were processed

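Messenger RNA of 6 S2 samples in 3 groups was sequenced from TruSeq Stranded mRNA libraries, per the labels' protocols. The authors deposited 1 table of RPKM values, with a count of alignments per sample. Per the submitters' processing notes the reads were set against dm3. No aligner or counting program is given in the sources used here.

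Columns are named by a symbol or by an mRNA and a symbol. Of 16381 features, 4564 were used: those with a mean of at least 1 RPKM, repeats within a symbol once, and those of the genes described. The other 11817 were not used. Columns were summed per symbol. Tests used limma 3.58.1 (R 4.3.3) on log2(RPKM + 1), with a mean per group over 6 samples, a variance trend and Benjamini-Hochberg adjustment over 4021 genes at 0.05. RPKM values are not counts, so no count model was used. On that scale the change of low genes is understated. The fits were tested on simulated data. About-read numbers are RPKM times length times alignments. Lengths are medians over transcripts in Ensembl 115 (BDGP6), used for names and lengths only. The members, gene lists and tests were chosen with earlier results of these data known. Genes outside the family were named from those lists, at most 6 per list by smallest p, plus defining markers. Alternatives covered the pseudocount, minimum, scaling, columns, samples, replicate number, variance trend and length. The plan was to leave low columns out only in an alternative, but outside the listed genes this was done throughout.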

Additional observations from a re-analysis of the deposited data

How the results depend on the processing

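For CBP knockdown against control, 4 GST genes were called higher. With only the 4 samples of the groups compared, 7 were called, and on omission of single libraries 0 to 7. For NAP-1 against CBP knockdown, 2 were called lower. This became 0 at a pseudocount of 0.1, with 4 samples in the fit and with the replicate number as a block, and 1 at a minimum mean of 5 RPKM, where GstD2 was not tested, and with symbol-only columns, where GstD2 had an adjusted p of 0.0503. It was 0 to 3 on omission of single libraries. The block gave 3 genes called higher in CBP knockdown. Same-numbered samples had correlations of deviations of 0.125 (CBP knockdown and control), 0.242 (NAP-1 knockdown and control) and -0.245 (NAP-1 and CBP knockdown), so the numbers were not taken to pair the samples. For the 6 calls, 118 alternative values were computed. Of these, 87 kept the call, 31 lost it and 0 changed direction. The cause of the losses was not tested. The groups compared did not overlap for any of the 6 calls, so omitting a library could not change a direction. Where an omission left 1 sample in a group, it was assumed to vary like the others. The share of all genes called in such fits is not given here, so these counts may not be particular to GST genes. The number of expressed GST genes was 17 to 23 over 5 other definitions. Columns repeated under another symbol were left out in an alternative chosen after seeing the data. The GST calls then held, while over all genes NAP-1 against CBP knockdown gave 58 higher and 67 lower, against 123 and 99. Tests without a minimum mean were not run. Levels near 1 RPKM rest on a few reads per library.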
